A study of Mus musculus with 39 samples.

Results

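The mouse genome holds 39 HOX genes, all of them present in both count tables of the series, and their transcripts are described here by cluster, paralog number, stage and genotype. The members were chosen by symbol (Hoxa, Hoxb, Hoxc or Hoxd followed by a paralog number) from the 47643 genes of each table, and the antisense and other long RNAs of the clusters were left out of the set. They fall into 11 Hoxa genes on chromosome 6, 10 Hoxb genes on chromosome 11, 9 Hoxc genes on chromosome 15 and 9 Hoxd genes on chromosome 2. HOX genes encode homeodomain transcription factors that give the cells of the trunk, hindbrain and limbs their position along the body axis. Within a cluster the genes lie in the order in which they are switched on, so that low paralog numbers at the 3′ end come on first and furthest forward and high paralog numbers follow later and further back. In the mouse embryo the first HOX transcripts appear in the posterior primitive streak around the onset of gastrulation, under Wnt, CDX and retinoic acid inputs, and before that stage the clusters are held silent by Polycomb proteins.

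The study measured total RNA of single postimplantation epiblasts, the embryonic tissue that gives rise to the body, and of epiblast stem cell (EpiSC) lines. Embryos came from crosses of mice heterozygous for a Stat3 allele in which exons encoding the SH2 and transactivation domains are replaced by a neomycin cassette, on a CD1 background, and each epiblast was 1 library, genotyped from extraembryonic tissue. Homozygous Stat3 null embryos numbered 4 at E5.5, 8 at E6.5 and 3 at E7.5, and WT embryos 2, 9 and 9. Of the 4 EpiSC lines, lines 2 and 6 were Stat3 null and lines 8 and 13 WT, all grown with FGF2, Activin A and the tankyrase inhibitor XAV-939. Each EpiSC line was 1 library. STAT3 is the transcription factor through which LIF and related cytokines signal, and the study asked what its loss does to the epiblast between implantation and gastrulation.

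Libraries held about 22941200 to 79014000 counts for epiblasts and 63445900 to 127584000 for EpiSCs, and levels are given as counts-per-million (CPM) on TMM-scaled library sizes or, between genes, as CPM per kilobase of exon (RPKM). Stat3 separated the genotypes at E7.5, at E5.5 and in EpiSCs but not at E6.5. At E7.5 it stood at 1.22 to 1.496 CPM in the 3 null and 4.63 to 24.3 CPM in the 9 WT libraries, at E5.5 at 9.33 to 22.7 CPM in null and 39.2 and 51.1 CPM in WT, and in EpiSCs at 201 and 323 counts in null against 1785 and 2940 counts in WT lines. At E6.5 the groups overlapped, at 1.43 to 8.10 CPM in null and 5.66 to 28.9 CPM in WT (log2 fold change -1.60, SE 0.394, adjusted p = 0.334, edgeR), so Stat3 does not check each label there. The count covers the whole gene, so exons outside the replaced part contribute to the null values. Some libraries stood apart from their group. E7.5 WT 3 had Stat3 at 10.9 CPM, within the WT range, but Pou5f1, the core pluripotency factor, at 605 CPM, where the other 8 WT libraries had 154 to 436 CPM and the 3 null libraries 588 to 729 CPM. E5.5 null 1 held 24 counts of Pou5f1 and 3671 of Cdx2, a trophoblast and posterior gene, and its summed extraembryonic ectoderm markers reached 2055 CPM where the other E5.5 libraries had 202.7 to 783 CPM. E6.5 null 1 held 3189 counts of Cdx2 and 1620 CPM of those markers where the other E6.5 libraries had 14.8 to 198 CPM.

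Promoters are shown for 4 members on which the results turn: Hoxb1 and Hoxa2, among the first genes of their clusters, Hoxd1, already detected at E6.5, and Hoxb8, which at E7.5 was detected in 4 WT libraries and in no null library. Each window holds up to 250 bases before the RefSeq transcription start on GRCm38.p6, 5′ to 3′ on the gene's strand, and capitals mark matches on either strand to AGGTCA (a hexamer of nuclear receptors such as those of retinoic acid), TTTATG (CDX), TGATNNAT (HOX with PBX) or TATAAA (the core promoter box), which can share bases.
Hoxb1 (chr11:96365508-96365751, + strand): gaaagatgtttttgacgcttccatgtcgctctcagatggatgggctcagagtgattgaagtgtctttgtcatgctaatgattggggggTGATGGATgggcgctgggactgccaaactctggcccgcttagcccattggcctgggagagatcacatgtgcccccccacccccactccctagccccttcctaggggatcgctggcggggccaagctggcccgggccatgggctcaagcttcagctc
Hoxa2 (chr6:52164832-52165081, - strand): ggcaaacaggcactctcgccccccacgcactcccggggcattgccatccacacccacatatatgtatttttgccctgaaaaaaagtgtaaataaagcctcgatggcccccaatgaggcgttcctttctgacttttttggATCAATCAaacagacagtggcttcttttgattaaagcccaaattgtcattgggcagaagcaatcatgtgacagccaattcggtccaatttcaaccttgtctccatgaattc
Hoxd1 (chr2:74762730-74762979, + strand): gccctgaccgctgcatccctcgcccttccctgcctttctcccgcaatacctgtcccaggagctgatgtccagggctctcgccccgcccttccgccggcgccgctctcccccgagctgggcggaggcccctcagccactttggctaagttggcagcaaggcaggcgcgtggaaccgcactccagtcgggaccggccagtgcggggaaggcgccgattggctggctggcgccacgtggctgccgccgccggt
Hoxb8 (chr11:96281655-96281904, + strand): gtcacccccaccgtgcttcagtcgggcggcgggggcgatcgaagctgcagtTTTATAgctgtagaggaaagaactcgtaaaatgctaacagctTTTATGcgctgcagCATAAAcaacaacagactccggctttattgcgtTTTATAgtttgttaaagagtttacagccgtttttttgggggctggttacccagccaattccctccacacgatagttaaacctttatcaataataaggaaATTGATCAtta

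Of the 39 members 22 were found in the RefSeq promoter table, with 24 promoters between them. The Hoxb1 and Hoxa2 windows each hold 1 TGATNNAT match, the Hoxb8 window holds 1 TGATNNAT, 2 TTTATG and 2 TATAAA matches, and the Hoxd1 window holds none of the 4. AGGTCA was found in 6 of the 24 HOX promoters (25%) and in 14% of all 32851 promoters in the table, TTTATG in 5 (20.8% against 10.8%), TGATNNAT in 4 (16.7% against 7.68%) and TATAAA in 4 (16.7% against 12.4%). HOX promoters held a median of 12.5 CpG dinucleotides against 6 over all promoters, a level that 31.5% of all promoters reached. These matches describe the letters of the windows and were not tied to any measurement here.

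Of the 9 WT epiblasts at E7.5, 8 held 27.6 to 100.5 RPKM summed over the HOX genes, where the 23 libraries of the earlier stages held 0 to 7.74 RPKM, and the genes present at E7.5 largely followed the order of the clusters. A gene was counted as detected in a library with more than 3 counts. At E7.5 a WT library had 6 to 28 of the 39 genes detected (median 19), at E6.5 0 to 6 (median 2) and at E5.5 7 and 14. Of the 39 members 34 were detected in at least 1 E7.5 WT library, 11 in at least 1 E6.5 WT library and 17 in at least 1 of the pair at E5.5. Hoxc12 and Hoxd12 had no counts in any of the 35 epiblast libraries.

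**Figure D1:**
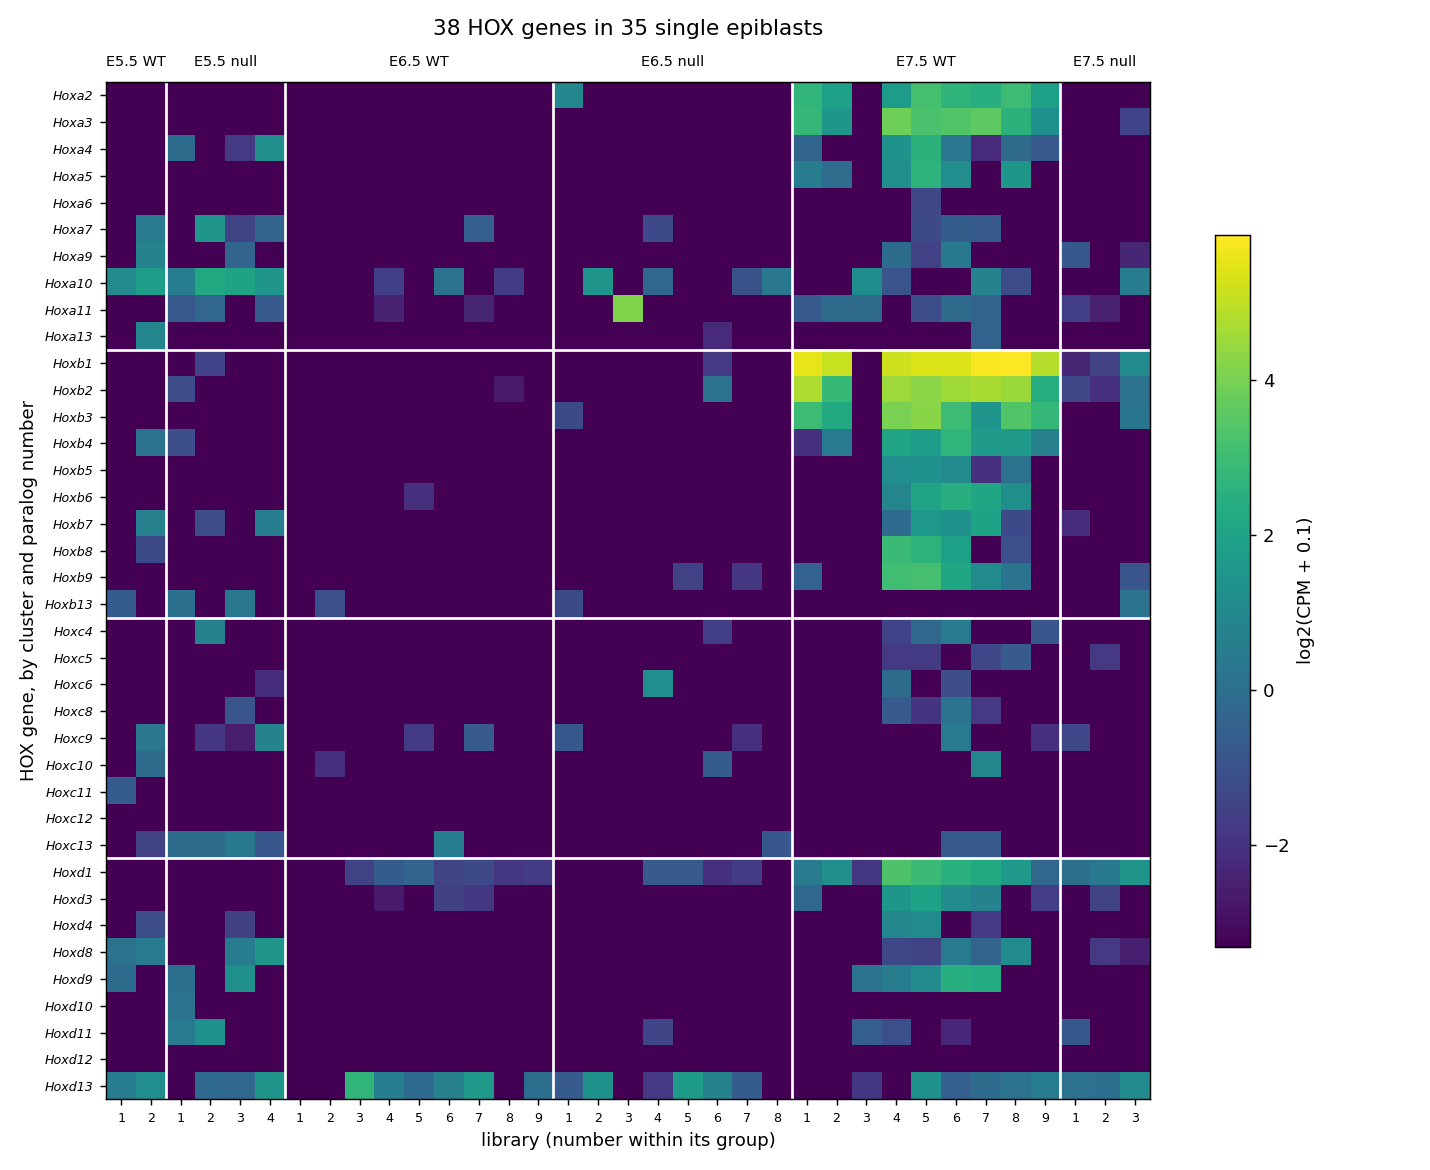
Level of 38 HOX genes (rows, by cluster and paralog number) in each of the 35 epiblast libraries (columns, by stage and genotype), as log2(CPM + 0.1); dark cells are at or near 0. The E7.5 WT libraries other than WT 3 form the bright block at paralogs 1 to 4 of Hoxa and Hoxb, and WT 4 to 8 extend it to Hoxb9.

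Levels per length at E7.5 fell along the row of early genes. Hoxb1, which marks the primitive streak and later one hindbrain segment, had 16.5 ± 7.47 RPKM (SD, n = 9). Hoxb2 followed with 4.90 ± 2.92 RPKM, Hoxa2 with 2.85 ± 1.51, Hoxd1 with 2.12 ± 1.79, Hoxb3 with 1.97 ± 1.42 and Hoxa3 with 1.19 ± 0.802 RPKM, and from Hoxb2 on neighbours in this order lay within 1 SD of each other. From Hoxb9 (1.08 ± 1.38 RPKM) downwards the SD was close to the mean or above it, and 1 to 9 of the 9 libraries had no counts. In the 8 WT libraries other than WT 3, paralogs 1 to 4 made up 83.0 to 97.7% of the summed HOX RPKM and paralogs 10 to 13 made up 0.246 to 3.89%. The Hoxc cluster, which has no paralogs 1 to 3, made up 0 to 2.06% of it and Hoxd 1.77 to 9.09%.

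Detection fell with paralog number across the 9 E7.5 WT libraries. Counting each gene in each library, paralog 1 genes were detected in 92.6% of cases, paralog 2 in 88.9%, paralog 3 in 81.5%, paralog 4 in 58.3%, paralog 5 in 55.6% and paralog 6 in 29.6%. Paralogs 7, 8 and 9 were detected in 44.4%, 48.1% and 44.4% of cases, so the fall was not even, and paralogs 10, 11, 12 and 13 in 18.5%, 33.3%, 0% and 25%. Members of a cluster share their library, so these shares are a description. At E6.5 WT the highest shares were 29.6% for paralog 1, mostly Hoxd1, and 22.2% for paralog 13, of whose 8 detections 6 were Hoxd13.

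The Hoxb genes showed this order within single epiblasts. Reading from Hoxb1 towards Hoxb9, the unbroken run of detected genes was 4 in WT 1, WT 2 and WT 9, 7 in WT 7, and 9, the whole row, in WT 4, WT 5, WT 6 and WT 8. Hoxb4, a hindbrain and trunk gene, was the last gene of the short runs, at 0.14, 1.33 and 1.51 CPM in WT 1, WT 2 and WT 9. In those 3 libraries Hoxb5, Hoxb6, Hoxb7 and Hoxb8 were all at 0 counts, and Hoxb9, a trunk gene, was at 0.65 CPM in WT 1 and 0 in the other two. Hoxb8, expressed in the posterior trunk, stood at 7.63, 6.08 and 3.63 CPM in WT 4, 5 and 6, at 0.37 CPM in WT 8 and at 0 in WT 7. Hoxb13 lies apart from the rest of its cluster and was at 0 in all 9. Coordinates of the Hoxb cluster are chr11:96194316-96368256 on GRCm38, with Hoxb1 at its high end, and the cluster lies 4.52 to 4.69 Mb from Stat3 on the same chromosome.

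**Figure D2:**
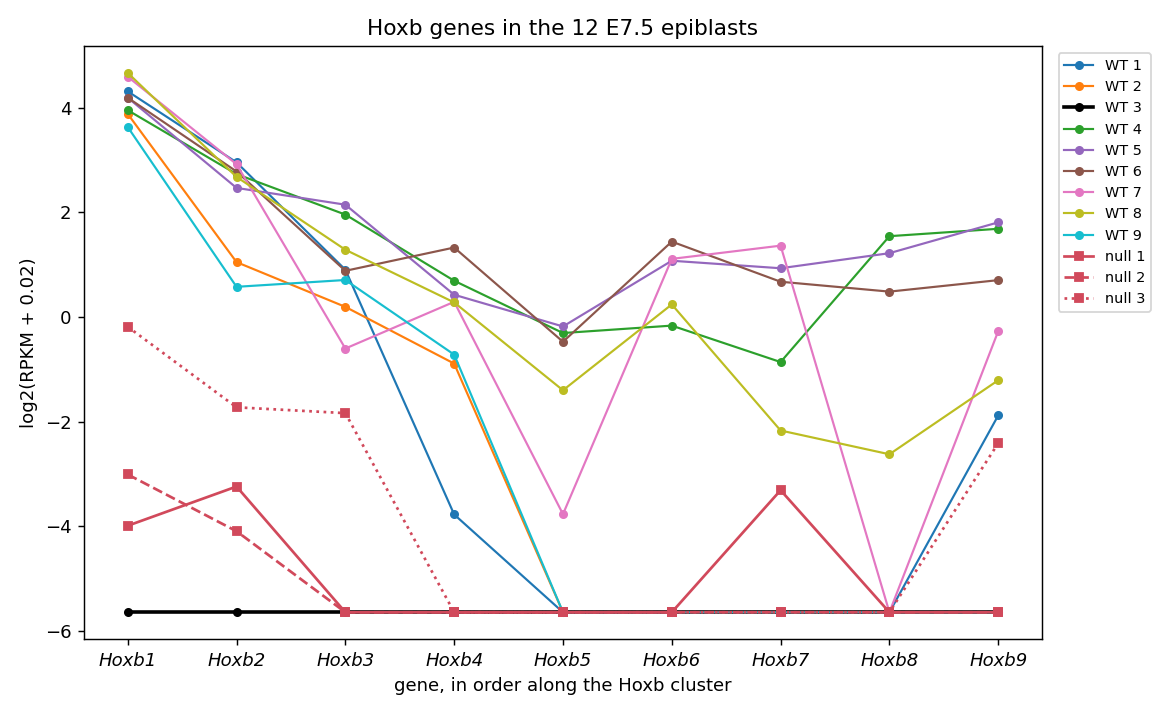
Level of Hoxb1 to Hoxb9 (horizontal axis, in order along the cluster) in each of the 12 E7.5 epiblasts, as log2(RPKM + 0.02); the floor of the plot is 0 counts. WT 4, 5, 6 and 8 stay above the floor along the whole row, WT 1, 2 and 9 reach it after Hoxb4 (WT 1 leaves it again at Hoxb9), and WT 3 lies on it throughout.

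In the other clusters the leading library differed between genes. Hoxa4 and Hoxa5, neighbours in the middle of Hoxa, were highest in WT 5 (5.86 and 6.02 CPM) and were at 0.68 and 1.36 CPM in WT 1. Hoxd3 and Hoxd4 were at 2.79 and 1.82 CPM in WT 4 and at 3.97 and 2.05 CPM in WT 5, whereas Hoxd4 was at 0.19 CPM in WT 7 and at 0 in the other 6 libraries, WT 6 included. Hoxd9 was highest in WT 6 and WT 7 (5.37 and 5.02 CPM), followed by WT 5, WT 4 and WT 3 (2.05, 1.38 and 1.03 CPM), and was at 0 in the other 4. Hoxd3 and Hoxd4 share 62.3% and 52.3% of their exon bases with genes on the same strand, each other included, so reads there cannot be assigned to either with certainty. Of the Hoxc genes, Hoxc4 (0.26, 0.74, 1.34 and 0.47 CPM in WT 4, 5, 6 and 9), Hoxc8 and Hoxc5 were each detected in 4 of the 9 libraries, and all were low.

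The summed HOX level separated the 9 WT epiblasts over a wide range, and Pou5f1 ran the other way. WT 5, WT 4 and WT 6 had the highest sums (100.5, 86.8 and 85.2 RPKM) and the lowest Pou5f1 (154, 164 and 188 CPM), and WT 9, WT 2 and WT 3 had the lowest sums (27.6, 32.7 and 1.79 RPKM) and the highest Pou5f1 (436, 364 and 605 CPM). Cdx1, a direct activator of HOX genes, was at 121 to 152 CPM in WT 4, 5 and 6, at 5.44 to 62.5 CPM in WT 1, 2, 7, 8 and 9, and at 0 in WT 3. The stage label is the same for all 9, so how far each had developed cannot be told apart from other differences between embryos. In bulk epiblasts, fewer HOX-expressing cells and less HOX RNA per cell cannot be told apart either.

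**Figure D3:**
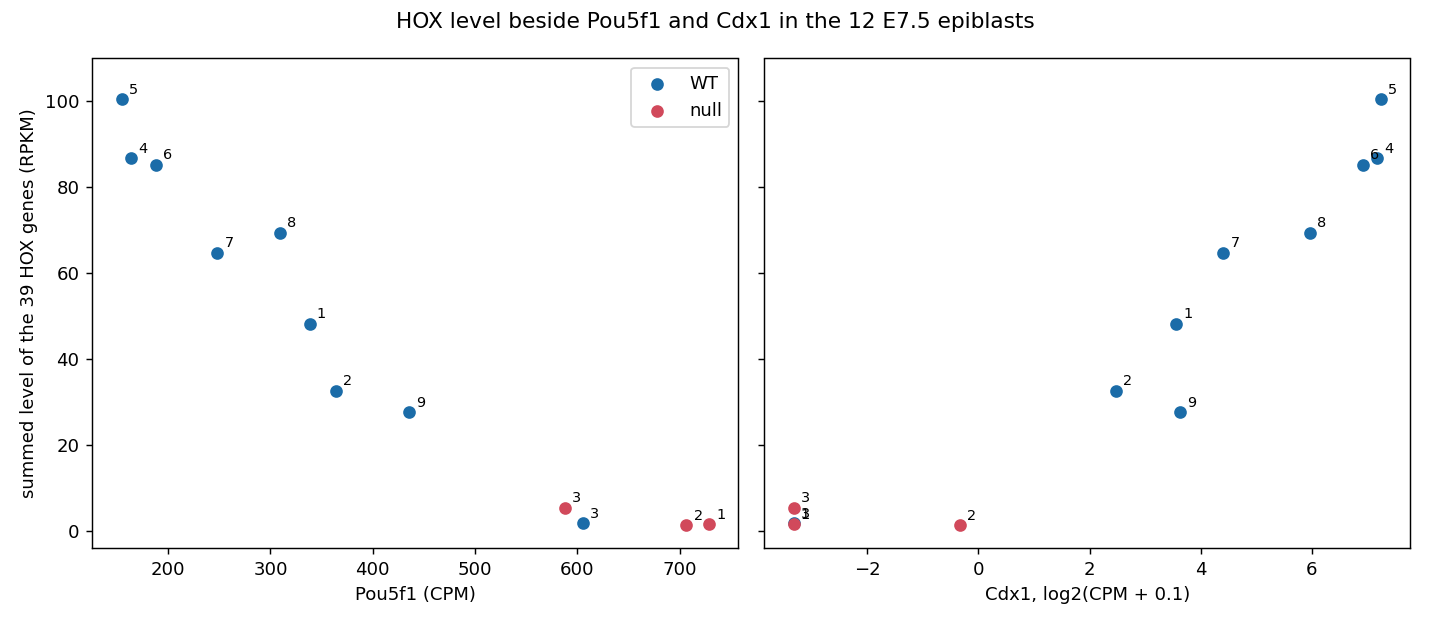
Summed level of the 39 HOX genes (vertical axis, RPKM) against Pou5f1 (left, CPM) and Cdx1 (right, log2(CPM + 0.1)) in the 12 E7.5 epiblasts, numbered within genotype; blue is WT, red is Stat3 null. The 3 null libraries (1.39 to 5.46 RPKM) and WT 3 (1.79 RPKM) lie together at high Pou5f1, and the other WT libraries run from 27.6 to 100.5 RPKM.

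At E7.5, Stat3 null epiblasts carried little HOX RNA. The 3 libraries had 9, 7 and 11 genes detected and summed HOX levels of 1.53, 1.39 and 5.46 RPKM, below the 27.6 to 100.5 RPKM of 8 WT libraries and on both sides of WT 3 at 1.79 RPKM. Of the 39 members, 21 were at or under 3 counts in each null library. Null 3 held the most Hoxb1 to Hoxb3 RNA of the nulls, with Hoxb1, Hoxb2 and Hoxb3 at 1.99, 0.98 and 1.10 CPM. In null 1 and null 2, Hoxb1 was at 0.10 and 0.24 CPM. Hoxb1 and Hoxb2 were detected in all 3 null libraries and the Hoxb run ended there in null 1 and 2 and at Hoxb3 in null 3. Beyond these runs, Hoxb7 was at 5 counts in null 1 and Hoxb9 at 18 counts in null 3. Null 3 also held 43 counts of Hoxb13 (1.03 CPM), a gene at 0 in the other nulls and in all 9 WT libraries. Hoxb13 failed the filter, and without a filter its log2 fold change was 6.55 (adjusted p = 0.140), not called.

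Each member on which the genotype comparison turns is given first by its values. Hoxa2, a hindbrain gene, was at 0 in the 3 null libraries and at 0 to 8.80 CPM in WT (median 5.42, lowest WT 3). Hoxb4 was likewise at 0 in null and at 0 to 6.38 CPM in WT (median 3.06). For both genes the 8 WT libraries other than WT 3 all lay above the null libraries, and WT 3 at 0 made the groups overlap. Hoxb1 was at 0.10, 0.24 and 1.99 CPM in null and at 0 to 58.8 CPM in WT (median 42.3). Hoxb2 was at 0.30, 0.13 and 0.98 CPM in null and at 0 to 27.0 CPM in WT (median 22.2). Both were 0 in WT 3 and above every null value in the other 8 WT libraries. Hoxd1, whose genotypes lay closer than those of Hoxb1, was at 0.95, 1.21 and 2.59 CPM in null and at 0.18 to 9.90 CPM in WT (median 2.97), and the groups overlapped in WT 1, 2, 3 and 9.

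Of the 25 members that passed the filter on low counts, 2 were called lower in null (log2 fold change beyond 1 either way and adjusted p under 0.05), beside 1.09% of the 19680 genes tested that were called lower. They were Hoxa2 (log2 fold change -10.38, SE 1.98, adjusted p = 0.0337) and Hoxb4 (-9.39, SE 2.16, adjusted p = 0.0471; edgeR's quasi-likelihood test, Benjamini-Hochberg adjusted over all genes tested, n = 3 and 9). With null at 0 a fitted fold is no bound, and against a floor of 3 counts per null library Hoxa2 was at least 66.8-fold and Hoxb4 at least 33.7-fold lower in null. The next members by p were Hoxa3 (-6.22, SE 1.67, adjusted p = 0.0698), Hoxb1 (-5.57, SE 1.55, adjusted p = 0.0827) and Hoxb2 (-5.13, SE 1.47, adjusted p = 0.0873), which did not pass. In direction, 23 of the 25 were below 0, where 51.8% of all genes tested were, and 14 of the 25 had an unadjusted p under 0.05 with null lower, where 10.9% of all genes did. The members' median was -5.39, or -4.20 with the 10 tested members at the null floor set at their bounds, and that of all genes -0.02. These shares and medians are a description, not a test. The filter asks for about 10 counts in as many libraries as the smaller group holds, here 3. Only Hoxd1 and Hoxd13 reach that in the nulls alone. The other tested members passed through WT libraries in whole or in part, which favours members higher in WT. The 2 members above 0 were Hoxd13 (0.91) and Hoxd11 (0.43), both of the 5′ end.

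The number that passed depended on single libraries and on the tool. Without WT 9 only Hoxa2 was called (adjusted p = 0.0476), and leaving out any 1 library other than WT 3 and WT 9 ended both calls, with adjusted p for Hoxa2 of 0.0503 to 0.154. With the replicate number as a block neither was called (adjusted p = 0.899). Without WT 3, 9 of 24 tested members were called lower, all of the Hoxa and Hoxb clusters with Hoxb1 to Hoxb4 among them, beside 4.55% of all genes called lower, and the 2 calls above were among them. WT 3, at 0 for Hoxb1 to Hoxb4, was the WT library with HOX levels like those of the nulls. Leaving it out widens the difference by construction, so the 9 of 24 adds no separate support. With DESeq2 on all 12 libraries 13 of 25 were called lower, beside 4.66% of all genes. With voom and sample quality weights, and with all 35 epiblast libraries in 1 fit, none was called, beside 3.28% and 0.0207% of all genes called lower.

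**Figure D4:**
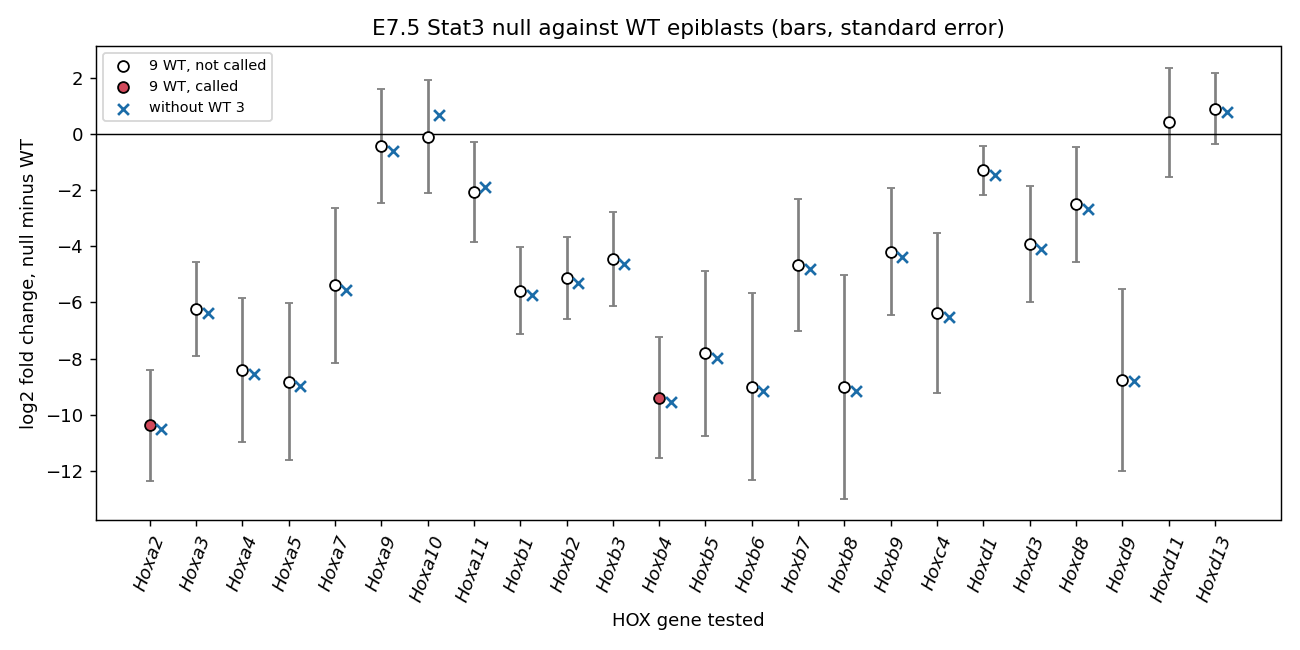
Log2 fold change of 24 tested HOX genes between E7.5 Stat3 null and WT epiblasts (circles, 9 WT libraries, with standard error; filled where called) and the same without WT 3 (crosses). The members of paralogs 1 to 4 and of paralogs 5 to 9 shown lie below 0, and the 4 of paralogs 10 to 13 lie on both sides.

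By paralog, all 11 tested members of paralogs 1 to 4 and all 10 of paralogs 5 to 9 had lower fitted levels in null (medians -6.22 and -6.60), against 2 of 4 of paralogs 10 to 13 (median 0.17). Of these members only Hoxd1 and Hoxd13 would pass the filter on the null libraries alone, so these directions were partly set by the filter. For members at the floor in null the bounds were 17.0-fold for Hoxa4, 22.8-fold for Hoxa5, 11.3-fold for Hoxb5, 25.8-fold for Hoxb6, 25.97-fold for Hoxb8 and 21.8-fold for Hoxd9. These 6 did not pass the adjusted threshold, and each was at 0 in 2 to 5 of the 9 WT libraries as well. At the 5′ end Hoxd13, a limb and genital gene, was at 0.97, 0.94 and 2.09 CPM in null and at 0 to 2.43 CPM in WT (median 0.61), and Hoxa10 at 0, 0 and 1.39 CPM in null and at 0 to 2.14 CPM in WT (median 0). Neither pattern followed the order of the cluster in either genotype.

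Markers of other tissues differed between the same libraries. Of all genes tested, 1.09% were called lower and 0.0813% higher in null. The summed visceral endoderm list (14 genes, 3 called lower in null) was 138 to 488 CPM in null and 705 to 5481 CPM in WT, and that of allantois and extraembryonic mesoderm (10 genes, 0 called, all 10 lower in the fit) 71.4 to 152 CPM against 60.7 to 931 CPM. The extraembryonic ectoderm list (12 genes, 10 tested, 1 called lower) summed to 11.6 to 41.8 CPM in null and 20.8 to 232 CPM in WT. The epiblast list (8 genes, 0 called, all 8 above 0 in the fit) summed to 4384 to 6114 CPM in null and 6088 CPM in WT 3, against 1098 to 3019 CPM in the other WT libraries. The primitive streak and posterior list (12 genes, 1 called each way) summed to 670.5 to 1018 CPM in null and 252 to 569 CPM in WT, and the blood list (10 genes, 5 tested, 0 called) to at most 25.1 CPM in either. The globins Hbb-y, Hbb-bh1 and Hba-x were at 0 in all 12 libraries and Msgn1, a gene of presomitic mesoderm, was at 0 in the 3 nulls; no defining marker of the other lists was at 0 throughout either group. The part of these differences in the HOX result was not tested.

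Between E6.5 and E7.5 in WT most HOX genes went from no counts to a measurable level, and the filter decides how many can be tested. Hoxd1 was called higher at E7.5 (log2 fold change 3.88, adjusted p = 0.00160, edgeR, n = 9 and 9), from 0 to 0.69 CPM (median 0.25) at E6.5 to 0.18 to 9.90 CPM (median 2.97). The only other member tested was Hoxd13, at 0 to 6.44 CPM (median 0.89) at E6.5, which was not called. That is 1 of 2 members beside 5.74% of the 17191 genes tested that were called higher. The other 37 failed a filter that asks for about 10 counts in as many libraries as the smaller group holds, here 9, and WT 3 with next to no HOX counts kept the E7.5 group at 8 at most. Markers of other tissues changed in the same comparison, in which 5.74% of all genes were called higher and 3.09% lower. Of the allantois and extraembryonic mesoderm list 8 of 9 tested genes were called higher at E7.5, with sums of 37.4 to 79.1 CPM (median 41.6) at E6.5 and 60.7 to 931 CPM (median 528) at E7.5. Of the visceral endoderm list 4 of 14 were called higher (median sums 297 and 2396 CPM), and of the epiblast list 6 of 8 were called lower (6272 and 1920 CPM). Their part in the HOX rise was not tested.

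**Figure D5:**
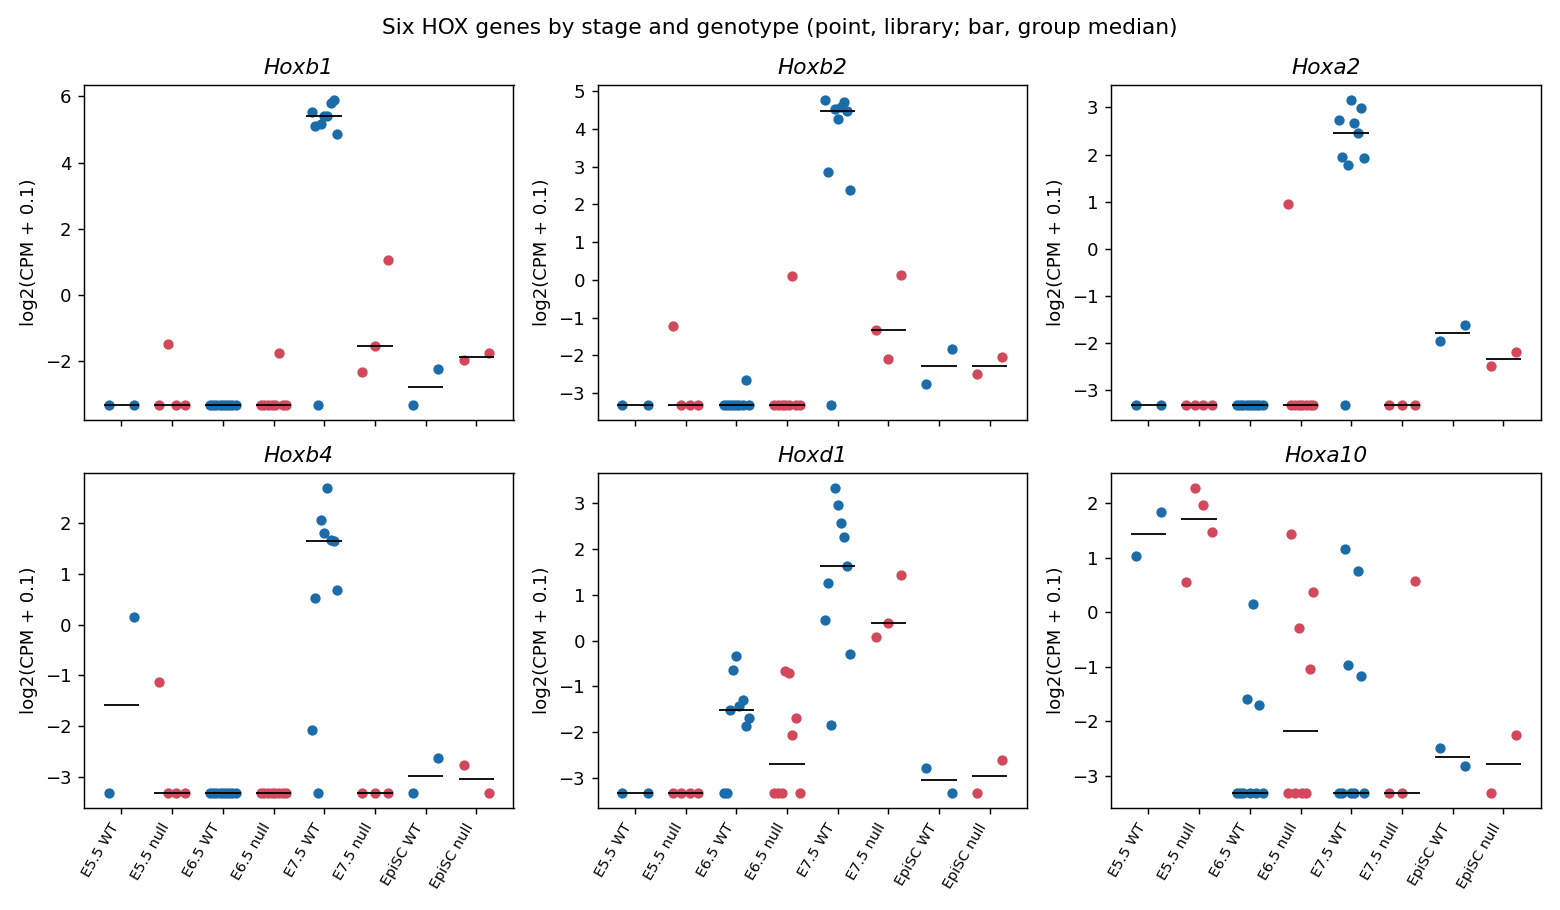
Level of 6 HOX genes in every library as log2(CPM + 0.1), by stage and genotype; points are libraries (blue WT, red Stat3 null) and bars are group medians, and EpiSCs were scaled in a table of their own. Hoxb1, Hoxb2 and Hoxa2 are high in 8 of 9 E7.5 WT epiblasts and Hoxb4 in 7, Hoxd1 is already present at E6.5, and Hoxa10 is highest at E5.5.

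Without the filter 35 members were tested and 26 were called higher, beside 6.19% of all genes called higher, and none lower. They included all 12 paralog 1 to 4 genes, led by Hoxb2 and Hoxa2, 12 of paralogs 5 to 9, and Hoxa11 and Hoxd11. With only genes of mean count at least 50 kept, 7 of 7 tested were called higher beside 6.53% of genes, with all 35 epiblast libraries in 1 fit 23 of 34 beside 5.06%, and without WT 3 7 of 8 beside 6.95%. At E6.5 WT, Hoxa2, Hoxa3, Hoxb1, Hoxb3 and Hoxb4 were at 0 counts in all 9 libraries, and Hoxb2 reached 2 counts. Genes this low at E6.5 reach a mean count of 50 only through E7.5 libraries. The 7 of 7 at that filter, and the 7 of 8 without WT 3, were thus largely set by the filter and add no separate support. Against a floor of 3 counts per E6.5 library the E7.5 WT mean was at least 91.8-fold higher for Hoxa3 and 65.0-fold higher for Hoxa2.

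Hoxd1 was the one paralog 1 to 4 gene already present in most WT epiblasts at E6.5. It had no counts in the 6 E5.5 libraries, 5 to 20 counts in 7 of 9 WT and 4 of 8 null libraries at E6.5 and 0 in the rest, and was detected in all 12 libraries at E7.5, WT 3 included with 7 counts. In null epiblasts it stood at 0 to 0.53 CPM at E6.5 and 0.95, 1.21 and 2.59 CPM at E7.5, with no overlap between the stages, as for 3.84% of all genes higher at E7.5. The test gave a log2 fold change of 3.18 (SE 1.55, adjusted p = 0.646, unadjusted p = 0.0608), so the rise was not called in null, and 0 of the 5 tested members were, beside 0.103% of all genes. In E7.5 null against E6.5 WT, the comparison that asks how close the older nulls stand to the younger WT epiblasts, Hoxd1 had a log2 fold change of 2.54 (SE 1.14, adjusted p = 0.537, unadjusted p = 0.0416), again without overlap, as for 2.55% of all genes. Neither of the 2 members tested there was called, beside 0.162% of all genes. Hoxb1 and Hoxb2, at 0 to 2 counts in the 9 E6.5 WT libraries, were at 4, 9 and 83 counts and at 12, 5 and 41 counts in the E7.5 nulls, but fell under the filter.

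Whether the genotype difference changed between E6.5 and E7.5 was tested as an interaction. Of 29 members tested 1 was called, Hoxa2 (log2 -16.80, SE 3.77, adjusted p = 0.0456), beside 0.258% of genes called in that direction. Hoxa2 was at 0 in 9 of 9 WT and 7 of 8 null libraries at E6.5, and its only E6.5 counts, 135, came from null 1. Without that library the adjusted p was 0.9999. For 11 of the 29 members the E6.5 libraries were so empty that the fit gave no usable standard error.

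At E6.5 few HOX transcripts were present in either genotype, and the 1 member that could be tested was not called. Only Hoxd13 passed the filter, at 0 to 6.44 CPM in WT (median 0.89) and 0 to 3.16 CPM in null (median 0.54), with a log2 fold change of -0.56 (SE 1.25, adjusted p = 0.961); 0% of all genes were called. Null libraries had 1 to 7 members detected (median 4) and WT libraries 0 to 6. A few null libraries held single members at levels not seen in the other libraries. Null 1, the library with high Cdx2, held 135 counts of Hoxa2, null 3 held 775 counts of Hoxa11 with no other member, and null 4 held 70 counts of Hoxc6. Among WT, library 3 held 387 counts of Hoxd13. Hoxa11 shares 34.98% of its exon bases with an antisense gene.

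The youngest epiblasts carried scattered HOX transcripts that did not follow cluster order. Hoxa10, a gene towards the 5′ end of its cluster, was detected in 6 of 6 libraries at E5.5, at 50 and 100 counts in WT and 50 to 115 counts in null. At E6.5 it was detected in 3 of 9 WT libraries, at 7 to 30 counts, and at 0 in the other 6. Hoxd8 was at 26 and 36 counts in the E5.5 WT libraries and at 0 in all 9 at E6.5, and was the 1 member of 8 tested that was called lower at E6.5 (log2 fold change -8.50, SE 1.76, adjusted p = 0.0377), beside 2.63% of all genes called lower. The filter asked for about 10 counts in 2 libraries, the size of the E5.5 WT group. Hoxd8 passed it only through that pair, so its direction was set by the filter. The call was lost with the block (adjusted p = 0.586), without either E5.5 library (0.214 and 0.0997) and without any 1 of E6.5 WT 4 to 9 (0.0504 to 0.0548), and DESeq2 gave no adjusted p, while with voom it was 5.67e-05. At a mean count of at least 50 Hoxd8 was not tested. At E6.5 null it was also at 0 in all 8. Of 18 tested CDX, retinoic acid, Wnt, FGF and GDF inputs to HOX transcription, 9 were below 0 and 9 above at E6.5 against E5.5. Cdx2 and Cdx4 were called lower (log2 -3.98 and -8.29, adjusted p = 0.0213 and 0.0410, edgeR) and Rarg higher, beside 2.63% and 2.52% of all genes. Cdx4, at 0 in all 9 E6.5 WT libraries, also passed the filter only through the E5.5 pair. Markers of other tissues moved between the same libraries. The summed visceral endoderm list was at 7192 and 8871 CPM in E5.5 WT and at 153 to 7528 CPM (median 297) in E6.5 WT, with 0 of 14 called and 13 below 0. The extraembryonic ectoderm list was at 203 and 783 CPM and at 14.8 to 163 CPM (median 20.8), with 2 of 12 called lower and all 12 below 0. Their part in the HOX values was not tested.

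Between genotypes at E5.5 none of 15 tested members was called, beside 0% of all genes. Those with the smallest p were Hoxa4, at 31, 0, 6 and 85 counts in null and 0 in both WT libraries (log2 7.65, SE 3.38, unadjusted p = 0.0637), Hoxa11 (6.75, SE 3.15, unadjusted p = 0.0752) and Hoxd11 (7.81, SE 4.09, unadjusted p = 0.104), all at an adjusted p of 0.999. Each was at 0 in both WT libraries and in 1 or 2 of the 4 null libraries. In null 1 to 4, Hoxa11 was at 18, 17, 0 and 20 counts and Hoxd11 at 47, 55, 0 and 0. Null 1 is the library with 24 counts of Pou5f1. The extraembryonic ectoderm list summed to 272 to 2055 CPM in the nulls, highest in null 1, and to 203 and 783 CPM in WT. The part of this in the 3 values was not tested.

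EpiSC lines were nearly silent at the HOX clusters in both genotypes. In all, 28 members were detected in at least 1 WT line and 24 in at least 1 null line. The summed level was 1.04 and 1.05 RPKM in WT and 0.786 and 1.05 RPKM in null lines. Hoxb3 stood at 37 and 27 counts in WT (lines 8 and 13) and 31 and 30 in null (lines 2 and 6). EpiSC and epiblast libraries were made with different kits and scaled in separate tables, so their levels are given side by side only: the EpiSC sums lie below the 27.6 to 100.5 RPKM of 8 E7.5 WT epiblasts and near the 1.39 to 5.46 RPKM of the E7.5 nulls.

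None of the 8 members tested in EpiSCs was called, beside 0.106% of all genes and with 0 of the 8 at an unadjusted p under 0.05, where 3.61% of all genes were higher and 5.48% lower in null at that p. The smallest p-values were those of Hoxa3 (13 and 27 counts in WT, 4 and 9 in null, log2 fold change -1.07, SE 0.757, adjusted p = 0.786), Hoxa2 (22 and 20 against 5 and 11 counts, -0.91, SE 0.718, adjusted p = 0.813) and Hoxb1 (11 and 0 against 10 and 18 counts, 1.71, SE 1.34, adjusted p = 0.813). Standard errors of this size leave differences of 2-fold and more undetectable. Meis1, which encodes a TALE homeodomain partner of HOX proteins, was called lower in the null lines, at 230 and 230 counts against 4103 and 4606 in WT (log2 -3.68, SE 0.207, adjusted p = 0.00706), and was the 1 of 9 TALE genes called there.

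Genes that act on or with the clusters were examined as 4 lists. Of 19 inputs to HOX transcription (CDX, retinoic acid, Wnt, FGF and GDF genes), 2 were called lower in E7.5 null, Aldh1a2 and Rarb, and 1 higher, Wnt3. Of all genes 1.09% were called lower and 0.0813% higher. In direction 13 of the 19 were below 0, where 51.8% of all genes were. Aldh1a2, the enzyme that makes retinoic acid, was at 0.30 to 0.87 CPM in null and 0.23 to 193 CPM in WT (log2 -7.27, SE 1.61, adjusted p = 0.0494), with WT 3 at 0.23 CPM. Rarb, a retinoic acid receptor, was at 0 to 0.56 CPM in null and 1.85 to 20.2 CPM in WT (log2 -4.51, SE 1.05, adjusted p = 0.0471), with no overlap. Cdx1 was at 0, 0.70 and 0 CPM in null and at 0 to 152 CPM in WT (log2 -7.99, SE 2.44, adjusted p = 0.104), and Cdx2 at 1.12, 2.55 and 7.01 CPM in null and at 0.67 to 92.5 CPM in WT (log2 -4.02, SE 1.17, adjusted p = 0.0941), and neither passed. Wnt3, a ligand of the primitive streak, had a log2 fold change of 2.14 (SE 0.449, adjusted p = 0.0337). Between E6.5 and E7.5 in WT, 6 of the 16 tested inputs were called higher and 2 lower, beside 5.74% and 3.09% of all genes, the former with Aldh1a2 (log2 8.85) and Cdx2 (log2 6.49).

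Of the 23 genes beside the clusters or transcribed as long RNAs within them, 13 were tested at E7.5 and 4 were called lower in null, beside the 1.09% of all genes called lower. Hoxb3os, antisense to Hoxb3 and Hoxb2, was at 0 in the 3 null libraries and at 0.15 to 12.4 CPM in WT (log2 -11.13, SE 1.72, adjusted p = 0.0207). Hoxaas2, antisense within Hoxa3, was at 0 in null and at 0.08 to 4.11 CPM in WT (log2 -9.22, SE 1.70, adjusted p = 0.0285), and Hotairm1, a long RNA of the Hoxa cluster, was at 0 in null and at 0 to 9.82 CPM in WT (log2 -10.35, SE 2.08, adjusted p = 0.0375). Hoxb3os, Hoxaas2 and Hotairm1 passed the filter only through WT libraries and could only come out lower in null. The 4 of 13 was thus partly set by the filter and adds no separate support. Skap2, the protein-coding neighbour of the Hoxa cluster, was at 4.32 to 6.36 CPM in null and 6.31 to 31.3 CPM in WT (log2 -1.65, SE 0.378, adjusted p = 0.0405). Hoxb3os covers 52.9% of the exon bases of Hoxb3 and 27.3% of those of Hoxb2, and the 4 antisense genes of Hoxa3 cover 25.4% of its own, and whether counting used strand is not given in the sources used here, so the sense and antisense values at these genes may share reads. In all, 16 of the 39 members share exon bases with another annotated gene.

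Among the protein partners and chromatin regulators of HOX genes no call was made between genotypes at E7.5. None of the 9 TALE cofactors passed the test. Meis1 was at 0.30 to 4.94 CPM in null and 0.54 to 61.9 CPM in WT, and Meis2 at 8.63 to 25.8 CPM in null and 3.89 to 109 CPM in WT, with WT 3 the lowest WT library for both. In WT, 4 of the 9 (Pknox2, Meis1, Meis3 and Meis2) were called higher at E7.5 than at E6.5, beside 5.74% of all genes. Of 18 Polycomb and trithorax genes none was called between genotypes at E7.5 (median 0.04). In WT 3 of the 18, with Phc2 and Bmi1 among them, were called higher at E7.5 than at E6.5, beside the same 5.74%.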

How the data were processed

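RNA of single epiblasts (35 libraries, extracted by the study with a PicoPure kit and prepared with the SMARTer Stranded Total RNA-seq Pico kit) and of 4 EpiSC lines (rRNA-depleted, NEBNext Ultra II) was sequenced by the authors, who trimmed reads with Trim Galore, aligned them to GRCm38/mm10 with HISAT2 and deposited raw gene counts from StringTie, 1 table for each sample type. The annotation version and strand setting are not given in the sources used here. Groups came from the labels. Genotype and stage comparisons were made on these counts with edgeR 4.0.16 (TMM, a minimum of 10 counts by group and 15 in total, robust quasi-likelihood F test, two-sided) in R 4.3.3, over all genes of the table, each fit on the groups compared. A gene was called at an absolute log2 fold change over 1 and a Benjamini-Hochberg adjusted p under 0.05. RPKM used GENCODE exon lengths. Every HOX gene could be named. The rule for full statistics was the members called (10 at most) or, where none was, the 3 with the smallest p. It was not kept throughout. Uncalled Hoxa3, Hoxb1, Hoxb2, Cdx1 and Cdx2 were also given statistics at E7.5. Some members due statistics were not given them. Of the other lists, called genes were named in part. Values of 1 member and of 1 other listed gene are not reported here singly, though both stay in the counts and sums. The members and lists were chosen with earlier results of these data known. Alternatives were DESeq2 1.42.0, limma 3.58.1 (voom with sample quality weights), RLE scaling, other filters, other sample sets and leaving out each library. The scripts were tested on simulated data. Replicates are separate embryos or lines. With 3 counts as the detection limit, floors and intervals cover counting error only, since reads carry no molecular identifiers used here.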

Additional observations from a re-analysis of the deposited data

Results flagged for a closer look

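Among 22 sets of library values, 3 held a library far from its group by Dixon's test. Its rate of about 1 group in 20 by chance holds for normally distributed values, not for counts with many zeros. A set with 1 library above 0 and the rest at 0 is always flagged, as for Hoxb2 and Hoxa2 below. Hoxd13 stood at 6.44 CPM in E6.5 WT 3, where the other WT libraries had 0 to 2.99 CPM. Hoxb2 stood at 0.977 CPM in E6.5 null 6 and at 0 in the other nulls. Hoxa2 stood at 1.82 CPM in E6.5 null 1, where the other nulls had 0. That library also held the highest extraembryonic ectoderm sum and the most counts of its stage, and the part of either in this value was not tested. The genotype effect on Hoxa2 differed between E7.5 and E6.5 by a log2 of -16.80 (interaction term, edgeR, adjusted p = 0.0456), which rests on that library, as its adjusted p without E6.5 null 1 was 0.9999.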

How the results depend on the processing

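The number of HOX genes called depended on the tool and the libraries. The share of all genes called moved with the setting as well, from 0.0207% (all 35 libraries in 1 fit) to 4.66% (DESeq2) called lower for E7.5 null against WT. The counts below are not set beside that share, so a change in them is not by itself a result about HOX genes. For E7.5 null against WT (2 called) it was 13 with DESeq2, 1 without a filter, and 0 with voom, with all 35 epiblast libraries in 1 fit or with the replicate number as a block; leaving out each library gave 0 to 9, with 9 without WT 3, 1 without WT 9 and 0 without any other single library. For WT E6.5 against E5.5 (1 called) it was 0 with DESeq2, a mean count of at least 50 or the block, 3 with voom, 5 in the fit of all 35 and 2 without the deep E6.5 libraries (a 40-million count limit), and 0 to 1 on leaving out each library. For WT E7.5 against E6.5 (1 called) it was 26 without a filter, 7 at a mean count of at least 50, 23 in the fit of all 35 and 12 without the deep libraries, and 1 to 7 on leaving out each library. For the interaction (1 called) it was 5 with DESeq2, 3 at a mean count of at least 50, 3 with voom, 0 without a filter, in the fit of all 35 or with the block, and 0 to 5 on leaving out each library. For E7.5 against E6.5 null (0 called) voom called 1. No HOX gene was called under any alternative run between genotypes at E6.5, at E5.5 or in EpiSCs, or for null embryos of E7.5 set against WT ones of E6.5, and DESeq2 called 0 in each. Fewer genes tested is the construction of the filters; otherwise the cause was not tested.

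Signs turned only for members that were not called: Hoxd13 in E6.5 null against WT was 0.12 with the block, and -1.03 to 0.16 on leaving out each library. Hoxd13 in E7.5 null against E6.5 WT was 1.17 with voom, 4.96 with the block, 0.055 without the deep libraries and -0.71 to 0.48 on leaving out each library. Replicate numbers did not pair the genotypes at E7.5, where deviations of same-numbered libraries correlated at -0.17 to 0.01. Between genotypes at E6.5 they correlated at 0.02 to 0.15, and the same-numbered library was the closest match for 5 of 8 pairs. At E5.5 it was the closest for 2 of 2 pairs (0.02 to 0.17). The number may therefore carry shared structure at those stages, although not every pair passed 0.1 in any comparison of 3 or more pairs. Depth limits members under 3 counts in a library, about 0.04 to 0.13 CPM in epiblasts.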
